A study of Bombus terrestris with 8 samples.

Results

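Pupa-only regions of *B. terrestris*, the buff-tailed bumblebee, are stretches of the placed chromosomes where a peak of accessible chromatin was listed in both pupal samples and in no sample of the egg, larva or adult. They were chosen by the presence and absence of listed peaks. The distinct intervals of 8 peak lists on the 18 chromosome sequences of the Bter_1.0 assembly were merged where they overlapped by at least 1 bp, which gave 52844 merged regions. Of these, 3802 held an interval of both pupal lists and none of the other 6 lists, which is 7.19% of all merged regions and 17.4% of the 21911 regions that held both pupal lists. Since the rule itself uses these lists, their numbers and strengths are given as a description, without a test.

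The bumblebee is a holometabolous insect, in which the pupa lies between the feeding larva and the winged adult. In the pupa, larval tissues are broken down or remodelled while the eyes, legs, wings and other adult structures form, a change directed by ecdysteroid hormones and by the fall of juvenile hormone. In ATAC-seq, the transposase Tn5 cuts DNA that is not wrapped in nucleosomes and tags the cut ends for sequencing, and open chromatin is inferred where such ends pile up. Promoters, enhancers and insulators are known to be open in this sense when transcription factors occupy them.

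The samples were worker eggs, larvae, pupae and adults of commercial colonies, with 2 samples per stage. An adult sample was 1 whole worker, and a sample of any other stage was a pool of whole animals of about that volume, taken from several colonies. Pupae were sampled before wing development, at a time when the body was segmented and the eyes were coloured. A signal from a whole animal averages over all of its cell types, so that a region open in few cells and a region weakly open in many cells cannot be told apart.

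On the placed chromosomes, pupa replicate 1 listed 26493 intervals and pupa replicate 2 listed 31105. The egg lists held 26495 and 23907 intervals, the larval lists 11768 and 7875, and the adult lists 20993 and 24817. Reads are not counted in these lists, and the depth behind a region is unknown. By the authors' numbers of mapped reads, both pupal libraries were deeper than egg replicate 2, larva replicate 1 and adult replicate 1. Larva replicate 2 was deeper than both pupal libraries, and egg replicate 1 and adult replicate 2 lay between them. A region counts as absent from a list when no summit there passed the peak caller, whose lowest −log10 (q value) was 1.3 in each list.

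More regions belonged to the pupal pair of lists alone than to any other pair. Regions held by exactly the 2 lists of a stage numbered 3802 in the pupa, 1741 in the adult, 994 in the egg and 31 in the larva. For the 24 pairs of lists from different stages, the number ran from 9 to 612, with a median of 81. The highest of these, 612, was for egg replicate 1 with pupa replicate 2. A list on its own held more of such regions in some samples than in others, with 1669 regions in pupa replicate 1 alone and 4548 in pupa replicate 2 alone.

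**Figure D1:**
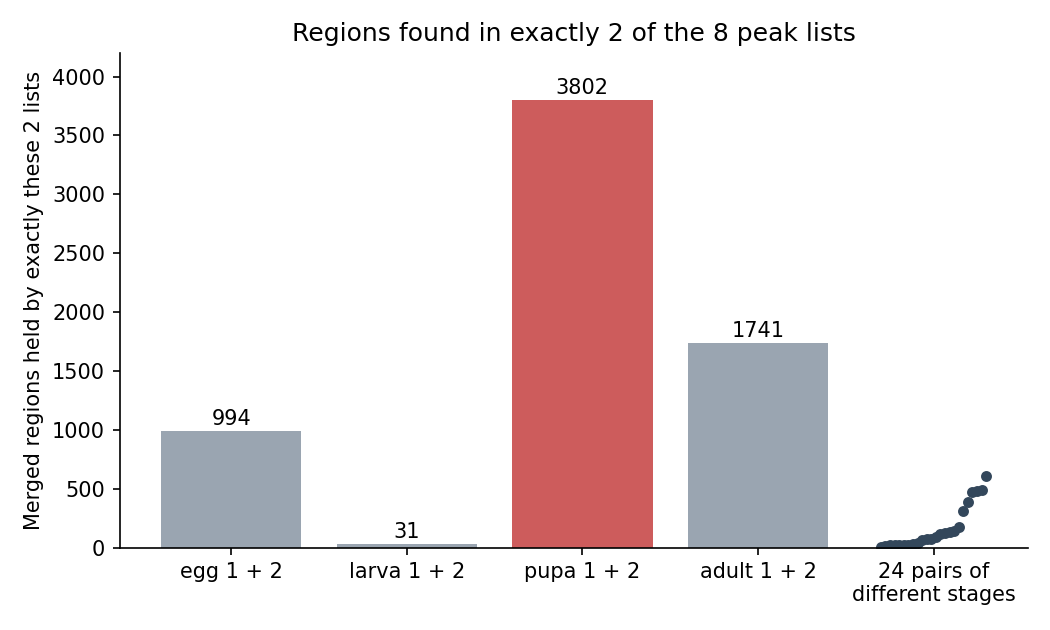
Number of merged regions held by exactly 2 of the 8 peak lists. Bars show the pair of lists of each stage, with the pupal pair at 3802, and each point is 1 of the 24 pairs of different stages, the highest of which is 612.

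The number of pupa-only regions moved with the length of the lists. When only the 20993 strongest intervals were taken from each egg, pupal and adult list, 2353 pupa-only regions were left, beside 2079 adult-only and 774 egg-only regions. With 7875 intervals from every list there were 639, beside 560 adult-only, 230 larva-only and 100 egg-only regions. Both of these settings were chosen after the data were seen. A planned setting, with −log10 (P value) of at least 10 in all 8 lists, left 2682 pupa-only, 844 adult-only and 553 egg-only regions. Without pupa replicate 1, that is with presence in replicate 2 alone, the number was 8430, and without replicate 2 it was 5634.

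The regions of both pupal lists were most often shared with all 6 other lists or with none, and they spread rather evenly in between. Besides the 3802 shared with no other list, 2638 were shared with 1 other list, between 2435 and 2817 with each of 2, 3, 4 or 5 other lists, and 4880 with all 6. Of the 2638 regions with 1 other list, 1486 (56.3%) had their extra interval in egg replicate 1 and 320 (12.1%) in egg replicate 2. Adult replicate 2 gave the extra interval in 450 of these regions, adult replicate 1 in 269, larva replicate 1 in 57 and larva replicate 2 in 56. Egg replicate 1 thus stood apart from egg replicate 2, and it also had the most regions that no other list shared, 4881 against 2993. Leaving out egg replicate 1 gave 5298 pupa-only regions.

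The edge of the rule is the threshold of the peak caller. Just inside it lay the region at 3918667 to 3918963 of NC_015774.1, with −log10 (q value) of 2.03 in pupa replicate 1 and 1.34 in replicate 2. The regions at 10758509 to 10758793 of NC_015762.1 and at 11024991 to 11025742 of NC_015765.1 followed, both with 1.35 in replicate 2. Just outside it, a region at 10034069 to 10034576 of NC_015768.1 had 7.25 and 8.33 in the pupal lists and a lone interval of adult replicate 1 at 1.31. Further regions of this kind lay on the same chromosome at 10852383 to 10852736 and at 14271882 to 14272396, both with 1.31 in adult replicate 1. Of the 2619 regions with exactly 1 interval of 1 other list, 95 (3.63%) had −log10 (q value) under 2 in that list. Signal below the threshold is not listed, so the number of pupa-only regions with such signal in another stage is unknown.

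Pupa-only regions were of modest strength. Fold enrichment is the height of the cut-site pileup at a summit relative to its surroundings in that library, and the highest summit stands for a region here. In pupa replicate 1 it ran from 1.52 to 8.86 with a median of 2.98, and in replicate 2 from 1.46 to 8.61 with a median of 2.93. The middle 50% of regions, from the lower to the upper quartile, lay between 2.52 and 3.63 in replicate 1 and between 2.43 and 3.61 in replicate 2. The −log10 (P value) had a median of 8.52 in replicate 1 and 12.2 in replicate 2, and it was higher in replicate 2 for 2708 regions (71.2%). It exceeded 20 in both replicates for 249 regions (6.55%) and 10 in both for 1191 (31.3%), while 803 (21.1%) stayed under 5 in at least 1 replicate. A fold enrichment above 5 in both replicates was found for 82 regions (2.16%). Adult-only and egg-only regions were of similar strength in their own lists. The median fold enrichment was 2.52 and 2.89 in the 2 lists of adult-only regions, and 3.06 and 3.48 in those of egg-only regions. Their median −log10 (P value) ran from 7.52 to 9.43 in adult-only and from 7.87 to 9.16 in egg-only regions. The 31 larva-only regions were weaker by this measure, with medians of 4.37 and 4.87, while their median fold enrichment was 2.70 and 2.80.

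Fold enrichment was similar in level between the replicates, while single regions differed. The log2 ratio of fold enrichment, replicate 1 over replicate 2, had a median of 0.03 and an SD of 0.38 over the 3802 regions, and 44 regions (1.16%) lay more than 2-fold apart. In the other 18109 regions of both pupal lists, the SD of this ratio was 0.35. Across the pupa-only regions, fold enrichment in the replicates had a Pearson correlation of 0.57 and a Spearman correlation of 0.54. The other regions of both pupal lists, which span a wider range, had 0.84 and 0.80. These correlations run across regions of a single pair of libraries, and regions are not independent replicates.

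**Figure D2:**
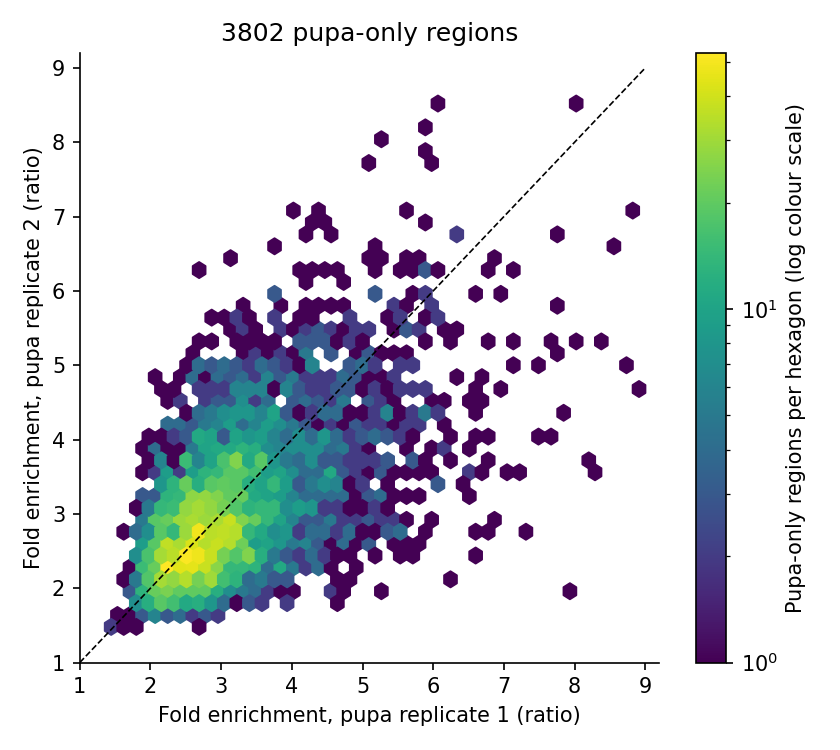
Fold enrichment of the 3802 pupa-only regions in pupa replicate 1 (x axis) and pupa replicate 2 (y axis), as ratios over local background, with colour for the number of regions per hexagon on a log scale and a dashed line of equality. The medians are 2.98 on the x axis and 2.93 on the y axis, and 82 regions exceed 5 on both.

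The position of the summit was closer between replicates than the rule required, since the rule asks only for 1 shared base pair. The highest summits of the 2 replicates lay a median of 22 bp apart. In 2991 regions (78.7%) they were within 50 bp, in 3482 (91.6%) within 100 bp, and in 123 (3.24%) more than 200 bp apart. The offset was smaller in stronger regions. By the −log10 (P value) of the weaker replicate, the 951 weakest regions had a median offset of 38 bp and the 951 strongest 16 bp, with 60.04% and 89.7% of summits within 50 bp.

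Within the pupal lists, intervals in pupa-only regions were weaker than the other intervals. In replicate 1, 3837 intervals lay in pupa-only regions, with a median −log10 (P value) of 8.42 against 13.1 for the other 22656. In replicate 2, 3819 intervals had a median of 12.1 against 15.0 for the other 27286. The share of intervals above 20 was 10.03% against 34.3% in replicate 1 and 22.5% against 40.3% in replicate 2. The replicates did not place them alike, as the median interval of a pupa-only region stood at percentile 34.8 of list 1 and at percentile 42.9 of list 2.

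Few of the strongest intervals of the pupa were in pupa-only regions. Of the intervals with −log10 (P value) of 5 to 10, 21.4% of list 1 and 14.5% of list 2 lay in pupa-only regions. Between 20 and 50, the shares were 6.40% and 10.3%, and between 50 and 100 they were 0.675% (14 of 2074) and 1.26% (43 of 3426). Above 100 there were 273 intervals in list 1 and 516 in list 2, and 0 of them lay in a pupa-only region. The highest −log10 (P value) of a pupa-only region was 67.3 in replicate 1 and 94.7 in replicate 2, against 259 and 276 for the other pupal intervals.

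**Figure D3:**
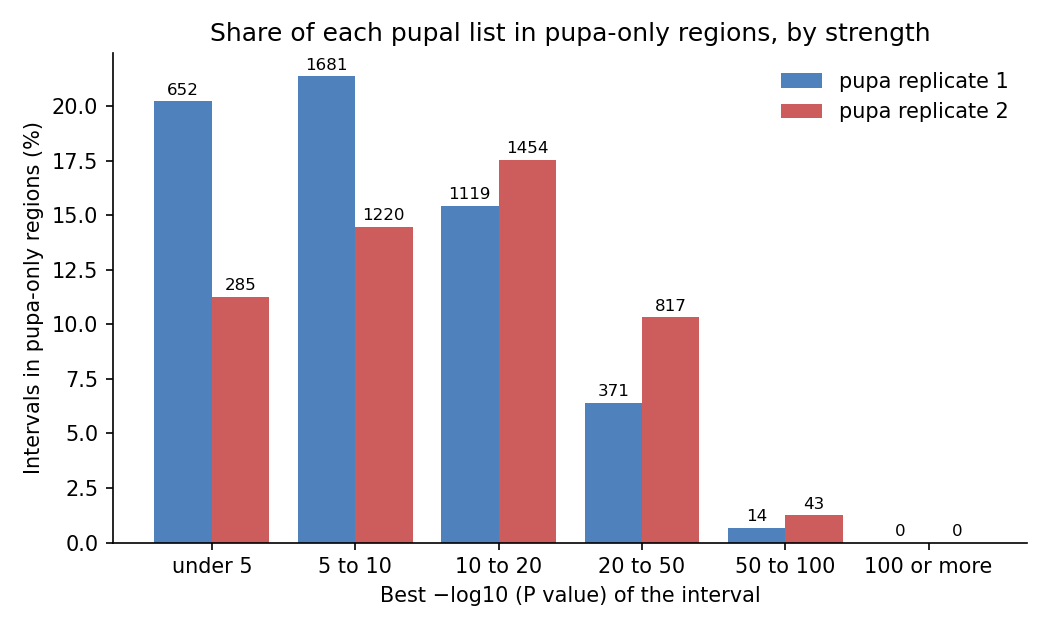
Share of the intervals of each pupal list that lay in pupa-only regions (y axis, %), by the best −log10 (P value) of the interval (x axis), with the number of such intervals above each bar. The share is highest under 20 in both replicates, 21.4% at 5 to 10 in replicate 1 and 17.5% at 10 to 20 in replicate 2, and falls to 0 at 100 or more.

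The 12 strongest regions, ranked by the lower fold enrichment of their replicates, are given by position on Bter_1.0, and each of them had no listed interval in the 6 samples of other stages. Gene positions of this assembly were not used here, so their genes are not named. The first, at 6583755 to 6584629 of NC_015773.1, had 8.02 in replicate 1 and 8.48 in replicate 2. It was also the most isolated of the 12, since no other region of any kind lay within 10690 bp of it and the nearest region of all 8 lists was 113750 bp away. The second, at 13085938 to 13086605 of NC_015764.1, had 8.74 and 7.04. At 9692178 to 9692789 of NC_015765.1 the fold enrichment was 7.84 and 6.73, and at 10836424 to 10837084 of NC_015767.1 it was 8.52 and 6.58. In this last region the summits of the replicates lay 2 bp apart.

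In the fifth region, at 2198362 to 2199012 of NC_015773.1, fold enrichment was 6.83 in replicate 1 and 6.43 in replicate 2. The nearest other region, 1389 bp away, was held by both pupal and both adult lists. The sixth, at 1958923 to 1959738 of NC_015766.1, had 6.34 and 6.74 and was the only one of the 12 within 5 kb of a region of all 8 lists, at 4940 bp. It also had a region of 6 lists, larva and adult included, at 216 bp. It was the only one of the 12 to drop out when regions with an interval of another stage within 500 bp were left out. At 12361077 to 12361536 of NC_015764.1 the values were 6.34 and 6.67, and at 7161274 to 7161986 of NC_015767.1 they were 6.80 and 6.29.

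The ninth region, at 4925767 to 4926529 of NC_015766.1, reached the highest −log10 (P value) of all pupa-only regions in replicate 1, 67.3, and its fold enrichment was 7.11 and 6.28. The next, at 12023735 to 12024329 of NC_015765.1, reached the highest in replicate 2, 94.7, and its fold enrichment was 6.06 in replicate 1 and 8.61 there. The eleventh, at 8389046 to 8389551 of NC_015766.1, had 6.06 and 7.66, and a further pupa-only region lay 237 bp from it. The last of the 12, at 14168005 to 14168662 of NC_015772.1, had 6.05 and 6.23 and was the only one with 2 summits in each list. Its nearest neighbour, at 3200 bp, was again pupa-only.

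The 82 regions with a fold enrichment above 5 in both replicates were spread over 17 of the 18 chromosomes, with 13 on NC_015765.1. They were wider than pupa-only regions in general, with a median of 566.5 bp against 381 bp, and their summits were 16.5 bp apart against 22 bp. The nearest region of all 8 lists was a median of 34960.5 bp away, against 19673 bp over all pupa-only regions. Another pupa-only region lay within 10 kb of 47.6% of them, against 45.2% over all.

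Most pupa-only regions were narrow and had 1 summit. The merged width ran from 200 to 1889 bp, with a median of 381 bp and quartiles of 310 and 488 bp, and all regions together covered 1598 kb. The intervals behind them had a median width of 304 bp in replicate 1 and 345 bp in replicate 2, and that of replicate 2 was the wider in 2466 regions (64.9%). In 3753 regions (98.7%) each list gave exactly 1 interval. More than 1 summit in either list was found in 539 regions (14.2%, 95% Clopper-Pearson interval 13.1% to 15.3%) and in both lists in 146 (3.84%). Where presence was asked of a single pupal list, the share was 7.86% with replicate 2 and 5.50% with replicate 1. Neighbouring summits of an interval lay a median of 284 bp apart, with quartiles of 229 and 338 bp. Adult-only and egg-only regions were also narrow, with median widths of 345 and 361 bp. More than 1 summit in a list was found in 10.9% of adult-only and 9.86% of egg-only regions.

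At the same strength, fewer pupa-only intervals than other intervals of their list had several summits, except at a −log10 (P value) of 5 to 10 in replicate 2. Between 20 and 50 on the −log10 (P value) scale, an interval had more than 1 summit in 9.43% of pupa-only cases and 23.8% of other cases in replicate 1, and in 13.3% and 25.6% in replicate 2. Their median widths in this range were 450.0 bp against 504 bp and 452 bp against 509 bp. Between 5 and 10, the widths were 273 against 275 bp in replicate 1 and 280.0 against 265 bp in replicate 2, and the shares with several summits were 5.65% against 9.28% and 8.61% against 8.36%. No test was made of these differences, because the intervals of a list are not replicates.

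The 3 widest pupa-only regions were also the 3 with most summits. The widest, at 10474119 to 10476007 of NC_015770.1, spanned 1889 bp with 3 summits in replicate 1 and 5 in replicate 2, and a further pupa-only region lay 197 bp from it. The next, at 10501692 to 10503522 of the same chromosome, spanned 1831 bp, also with 3 and 5 summits. The third, at 9945768 to 9947549 of NC_015775.1, spanned 1782 bp with 5 summits in each list. In replicates 1 and 2, their fold enrichment was 2.68 and 2.51, 3.67 and 3.07, and 3.16 and 2.96. The lower of each pair was under 3.17, the upper quartile of the weaker replicate over all pupa-only regions.

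Pupa-only regions were found on all 18 chromosomes, from 42 on NC_015778.1 to 375 on NC_015768.1, at 17.5 per Mb in all when each chromosome was taken to end with its last region. As a share of the merged regions of a chromosome, they made up between 4.31% and 8.37%. The highest shares were 8.37% (95% Clopper-Pearson interval 7.47% to 9.35%) on NC_015773.1, 8.23% (7.35% to 9.18%) on NC_015765.1 and 8.10% (7.14% to 9.15%) on NC_015767.1. The lowest was 4.31% (3.12% to 5.78%) on NC_015778.1, where adult-only regions were as many, 42. On the other 17 chromosomes there were between 1.74 and 3.24 pupa-only regions for each adult-only region. The intervals cover counting error only.

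**Figure D4:**
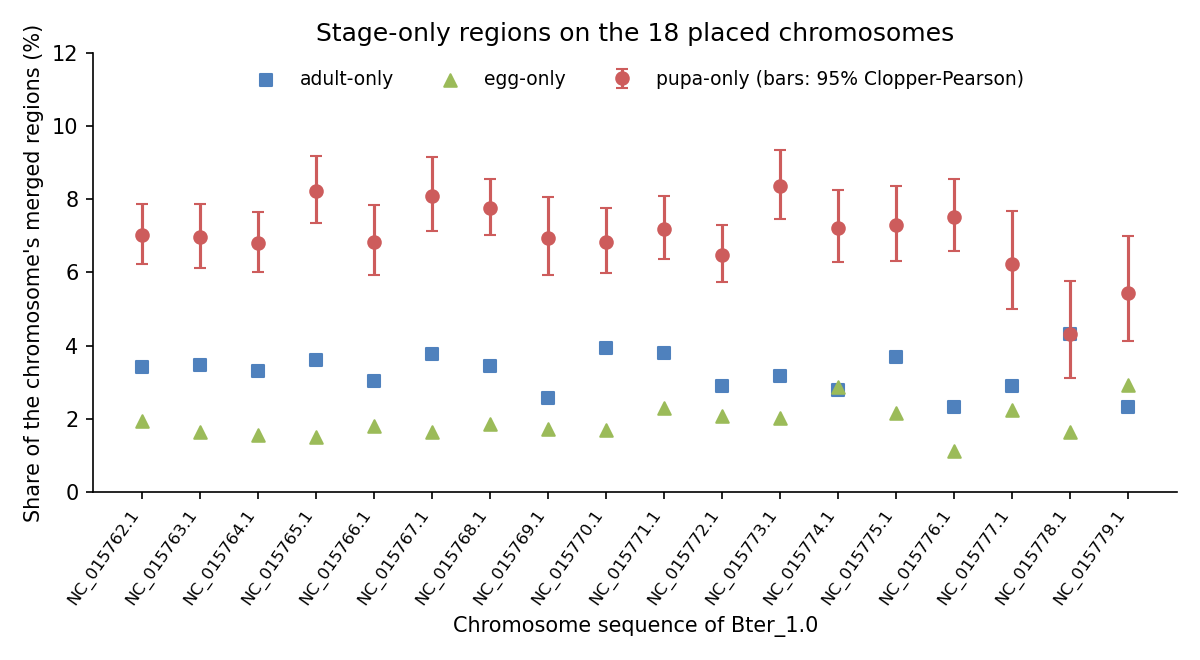
Share of the merged regions of each of the 18 placed chromosomes (y axis, %) that were pupa-only (circles, with 95% Clopper-Pearson bars for counting error), adult-only (squares) or egg-only (triangles). Pupa-only shares run from 4.31% on NC_015778.1, where the adult-only square coincides with the circle, to 8.37% on NC_015773.1.

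Strength and width differed little between chromosomes. The median fold enrichment of the weaker replicate ran from 2.44 on NC_015778.1 to 2.80 on NC_015779.1, and the median width from 358.5 to 434 bp. Along the chromosomes, divided into 10 segments of equal length, the pupa-only share of all regions was lowest in the first, at 6.53% (5.91% to 7.19%), and highest in the sixth, at 7.94% (7.22% to 8.71%). It was 6.58% in the last segment and also 6.58% in the third, so it did not rise steadily from the ends to the middle. Regions of all 8 lists made up 10.4% of regions in the first segment, 8.40% in the sixth and 9.72% in the last.

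Pupa-only regions had a pupa-only neighbour more often than regions in general did. Among the regions directly before and after a pupa-only region on its chromosome, 12.1% were pupa-only, against 7.19% of all regions, a ratio of 1.68. The same ratio was 1.97 for adult-only regions, 2.09 for egg-only regions and 1.87 for regions of all 8 lists. The median gap from a pupa-only region to the next was 12089.5 bp, and 1720 regions (45.2%) had another within 10 kb. For adult-only and egg-only regions, of which there are fewer, these shares were 26.5% and 19.0%. Without pupa replicate 1, the pupal share was 68.4%, with 8430 regions, and with a −log10 (P value) of at least 10 in both pupal lists it was 21.3%, with 1191 regions. In windows of 100 kb, the variance of the number of pupa-only regions was 1.98 times its mean of 1.75, and 30.0% of the 2177 windows held 0. This ratio was 1.45 for adult-only regions, 2.199 for regions of all 8 lists and 6.04 for all regions, which were themselves unevenly spread over the windows. The means of these were 0.80, 2.24 and 24.3 per window. The ratios followed the order of the means, so they do not rank the classes by clustering.

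Chained at gaps of up to 10 kb, the 3802 regions formed 2082 lone regions, 452 pairs and 228 clusters of 3 or more, which held 816 regions (21.5%). The 1741 adult-only regions formed 31 clusters of 3 or more, with 6.20% of them, and the 994 egg-only regions formed 7, with 2.31%. Chaining at a fixed gap depends on the number of regions in a class. The largest pupa-only cluster spanned 50.8 kb of NC_015765.1, from 11945914 to 11996694, and held 11 pupa-only regions. Of the 14 other regions in that span, 6 held both pupal lists, 1 held no pupal list and was adult-only, and 0 held all 8 lists. Over all regions, 41.5% held both pupal lists, 35.3% held no pupal list and 9.23% held all 8 lists. With only 14 regions, 0 of all 8 lists is not far from that share. The nearest region of all 8 lists was 119012 bp from the closest member of the cluster.

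Fold enrichment was uneven within this cluster. In the first 3 of its regions, in order of position, it lay between 1.52 and 1.57 in replicate 1 and between 1.46 and 1.60 in replicate 2. It was 5.34 and 2.75 in the sixth, a region of 1699 bp from 11964830 to 11966528, and 6.26 and 5.42 in the last, from 11996007 to 11996694. The strong region named above that starts at 12023735 of this chromosome lies beyond the end of the cluster.

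The second largest cluster, from 10331298 to 10364168 of the same chromosome, held 10 pupa-only regions in 32.9 kb. Fold enrichment there ran from 2.05 to 4.51 in replicate 1 and from 1.59 to 3.87 in replicate 2. The strongest of them in replicate 1, at 10342986 to 10343530, had 4.51 and 3.42, and the strongest in replicate 2, at 10347923 to 10348451, had 3.17 and 3.87. The third cluster, from 3333714 to 3373815 of NC_015773.1, held 9 pupa-only regions in 40.1 kb, between 2.02 and 4.42 in replicate 1 and between 2.87 and 3.87 in replicate 2. Regions of all 8 lists were absent from the span of both clusters, and the nearest lay 7924 and 6641 bp from a member.

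The longest stretches between successive pupa-only regions were not empty of open chromatin. The longest, 799 kb of NC_015762.1 from 14919861 to 15718917, held 118 other regions, 24 of them with both pupal lists and 9 with all 8 lists. A stretch of 795 kb on NC_015770.1, from 12941741 to 13736446, held 116 other regions, 37 with both pupal lists and 18 with all 8. Over all regions, 41.5% held both pupal lists and 9.23% all 8 lists, so regions of both pupal lists were also less common in these 2 stretches.

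Pupa-only regions lay farther from regions of all 8 lists than adult-only, egg-only and the other pupal regions did, but not than larva-only regions or those of pupa replicate 1 alone. The distance to the nearest of the 4880 regions of all 8 lists had a median of 19673 bp, with quartiles of 7988 and 43974.5 bp and a highest value of 516250 bp. It was 43928 bp for the 31 larva-only, 15727 bp for adult-only, 14196.5 bp for egg-only and 15498.5 bp for regions of both pupal and both adult lists alone. The 13229 other regions of both pupal lists, without those of all 8 lists, had a median of 12729 bp. Within 1 kb of a region of all 8 lists lay 130 pupa-only regions (3.42%), against 7.18% of these other pupal regions, and more than 50 kb away lay 814 (21.4%) against 13.4%. By chromosome, the pupa-only median ran from 8569.5 bp on NC_015778.1 to 32968.5 bp on NC_015770.1. Other classes were not measured by chromosome. Without larva replicate 2, a region had to be in 7 lists only to count as shared by all, and the pupa-only median was 14166.5 bp. Stricter lists lengthened it, to 37356 bp with a −log10 (P value) of at least 10 in all 8 lists and to 38930.5 bp where this was asked only of the regions of all 8 lists. Both settings left fewer regions of all 8 lists to be near, 2455 in the first, and other classes were not measured there. With this minimum in the pupal lists alone, 4555 regions of all 8 lists were left and the pupa-only median was 22472 bp.

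**Figure D5:**
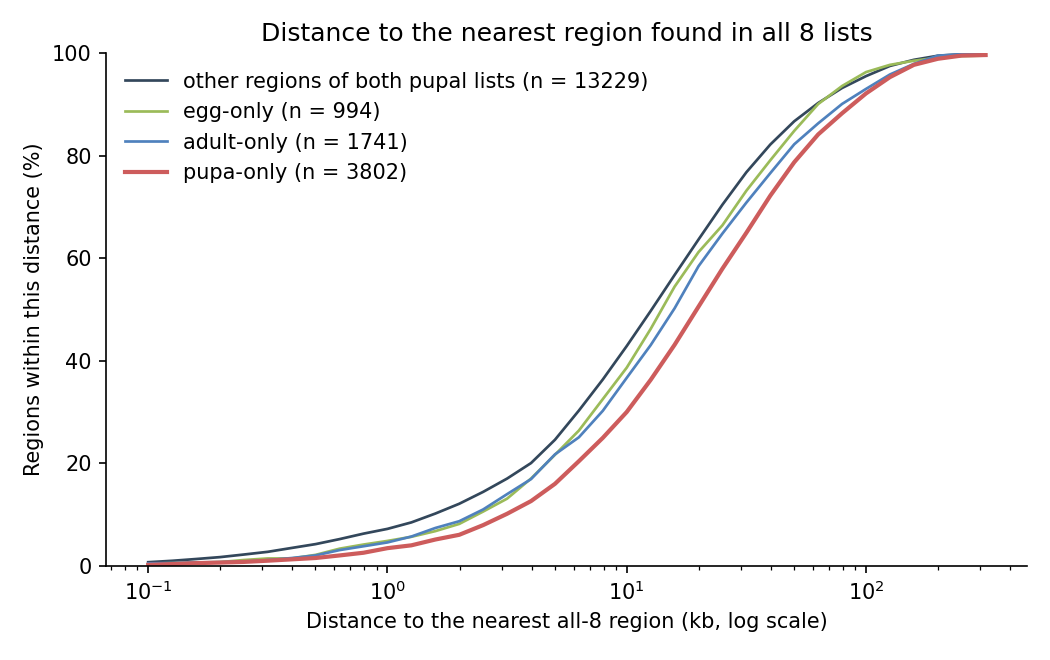
Share of regions (y axis, %) within a given distance of the nearest region of all 8 lists (x axis, kb, log scale), for pupa-only, adult-only and egg-only regions and for the other regions of both pupal lists without those of all 8. The pupa-only curve is lowest from 1 to 50 kb, with 30.0% of its regions within 10 kb against 36.6% adult-only, 38.6% egg-only and 42.8% other pupal regions.

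The longer distance was also seen among regions of like strength in pupa replicate 2, while their strength in replicate 1 was not matched. For regions with −log10 (P value) of 5 to 10 in replicate 2, the median was 20389 bp in 1213 pupa-only regions and 14867 bp in 2475 other pupal regions. Between 10 and 20 it was 17539 against 11804 bp, and between 20 and 50 it was 20376 against 11825 bp. Between 50 and 100, with 43 pupa-only regions, it was 37418 against 14186.5 bp. The difference was smallest under 5, with 19366 against 17311 bp. Among the pupa-only regions themselves, distance and the fold enrichment of the weaker replicate had a Pearson correlation of 0.10 and a Spearman correlation of 0.14 over 3802 regions of the same libraries. Regions of pupa replicate 1 alone had a median of 23168 bp and those of replicate 2 alone 15118 bp, so that the lists of the 2 replicates differed from each other by more than pupa-only and adult-only regions did. No test was made, because each set comes from 1 pair of libraries.

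Regions of all 8 lists were less common among the nearest neighbours of pupa-only regions than among regions in general. The nearest region of any kind lay a median of 959 bp away, and in 1951 cases (51.3%) within 1 kb. For 540 pupa-only regions (14.2%) this nearest region was itself pupa-only. It was a region of all 8 lists for 191 (5.02%), while such regions made up 9.23% of all regions. Adult-only regions were the nearest in 96 cases (2.52%), against 3.29% of all regions, and egg-only regions in 63 (1.66%), against 1.88%. The regions directly before and after a pupa-only region were found in 2.76 lists on average, against 3.02 for adult-only, 2.94 for egg-only and 3.16 for all regions. Regions of all 8 lists made up 5.25% of these neighbours, against 7.32% for adult-only, 7.60% for egg-only and 9.23% for all regions. Of the neighbours of pupa-only regions, 30.3% held no pupal list and 42.5% held both, against 35.3% and 41.5% for all regions.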

How the data were processed

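Whole animals of 4 stages were profiled by ATAC-seq, with 2 samples per stage and 1 peak list per sample. The authors filtered the reads with SOAPnuke and aligned them to Bter_1.0 with Bowtie2, keeping up to 200 alignments per read. They ran MACS2 on each sample, with cut ends shifted by -100 bp and extended by 200 bp and with summits split. For their later analyses, the authors kept only peaks that were reproducible between the 2 replicates of a stage by the irreproducible discovery rate. The per-sample lists used here were taken before that filter. A pupa-only region therefore need not be a reproducible peak by the authors' standard. The submitters' processing notes give version 2.2.5 for Bowtie2 and for MACS2. The deposited lists give per summit the fold enrichment, a ratio to the local background of the same library, the −log10 of the P value and of the q value, and a score, which MACS2 in the authors' hands took from the q value. None is normalized between samples, and no control library or removal of duplicate reads is stated.

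Distinct intervals on the 18 placed chromosomes were merged at an overlap of 1 bp. A region took the highest summit value of each list, and distances were measured between region edges. Coordinates count from 1. Regions were named by rule, namely the 12 strongest by their lower pupal fold enrichment, the 3 widest, the 3 with most summits, the 3 largest clusters, and 3 on each side of the threshold. The members, classes and rules were chosen with earlier results of these data known. No statistical test was run, since the rule uses all lists and regions are not replicates. Clopper-Pearson intervals at the 95% level cover counting error only. Merging and distances were tested on simulated data. The pupal lists shared 5 identical intervals, so they are not copies of 1 library. The planned analyses of genes and motifs were not run, as no sequence or annotation of Bter_1.0 was used here. Python 3.11.15, numpy 2.4.6, pandas 2.3.3, scipy 1.17.1 and matplotlib 3.10.9 were used.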

Additional observations from a re-analysis of the deposited data

Results flagged for a closer look

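Contigs that Bter_1.0 places on no chromosome lie outside the rule, and they also held regions with intervals of both pupal lists and of no other list. There were 387 of them among 10401 merged regions (3.72%, 95% Clopper-Pearson interval 3.37% to 4.10%), on 84 contigs, with a median fold enrichment of 2.90 in pupa replicate 1 and 2.89 in replicate 2 and a median width of 367 bp. Adult-only regions numbered 242 there, egg-only regions 120 and larva-only regions 35, while regions of all 8 lists made up 29.4%. The lists have no control sample, so these numbers could only be set against those of the other stages.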

How the results depend on the processing

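With −log10 (P value) of at least 10 required in all 8 lists, the median fold enrichment was 4.01 and 3.76 in pupa replicates 1 and 2, the median width 473.5 bp, the share with several summits 18.5%, the share within 10 kb of another pupa-only region 34.5% and the median distance to a region of all 8 lists 37356 bp. With this minimum in the pupal lists alone, these were 3.91 and 3.74, 441 bp, 15.0%, 21.3% and 22472 bp, over 1191 regions. Windows around summits in place of intervals gave 2.89 and 2.87, 222 bp, 3.40% and 51.0%. The median over summits gave 2.94 and 2.87. Without regions that had an interval of another stage within 500 bp, 41.7% lay within 10 kb of another. Of all 3802 regions, 30.4% had another within 5 kb and 86.2% within 50 kb. With −log10 (P value) of at least 10 in every list of a region of all 8 lists, the distance was 38930.5 bp. Equal list lengths gave 639 or 2353 regions. The pupal minimum and the equal list lengths moved the number by over 1.5 times, and no other setting but leaving out pupa replicate 1 did. Leaving out each replicate in turn gave 3858 to 8430 regions, median fold enrichments of 2.80 to 2.998 in replicate 1 and 2.56 to 2.93 in replicate 2, widths of 278 to 383 bp, 5.50% to 15.1% with several summits, 45.3% to 68.4% within 10 kb, and distances of 14166.5 to 20291.5 bp. Requiring an overlap of 50 bp or adding unplaced contigs moved no value beyond its spread. Among the settings run, the 12 strongest regions were kept in all but the 500 bp setting, which kept 11. Most of these settings left out a list or set a minimum that these regions exceeded. Such settings could not have dropped them. No paired analysis was possible because no result comes from a test. The alternatives for promoters and motifs were not run.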
